A study of Rattus norvegicus with 12 samples.

Results

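The genes described here are the 6 skeletal muscle troponin genes, 3 of the slow-fiber type (Tnnt1, Tnni1 and Tnnc1) and 3 of the fast-fiber type (Tnnt3, Tnni2 and Tnnc2). Their identifiers in the tables are ENSMUSG00000064179 (Tnnt1), ENSMUSG00000026418 (Tnni1), ENSMUSG00000091898 (Tnnc1), ENSMUSG00000061723 (Tnnt3), ENSMUSG00000031097 (Tnni2) and ENSMUSG00000017300 (Tnnc2). They were picked out by identifier, not by measured values, from the 56953 genes listed in 2 tables of RNA-seq counts. Earlier results of these data were known when they were chosen. All 6 were found in both tables and all 6 passed the filter on low counts, which left 10450 genes for testing. The counts come from muscle of Long-Evans rats, an outbred laboratory strain, all labelled wild type. The labels describe 6 samples of back muscle and 6 of leg muscle, with 3 of each labelled MFIT, for treatment by magnetic fluid injection, and 3 labelled NT, which covers untreated and sham-operated muscle. The series text speaks of collection at 7 and 14 days after surgery, but no day is attached to any sample, so a difference between muscles cannot be told apart from one between days. The labels used here state neither sex nor age.

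Each muscle has its own table with 6 columns, 3 headed ST and 3 headed WT, each with a replicate number from 1 to 3. The muscle is part of each column name, so back and leg columns were compared as labelled groups of 6. The headers ST and WT occur in the treatment label of 0 of the 12 samples. They are used below only as column codes, and nothing below says which code is the injected muscle.

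Troponin is the calcium switch of the thin filament in striated muscle. It has 3 subunits: troponin C binds calcium, troponin I holds back the interaction of actin and myosin, and troponin T anchors the complex to tropomyosin. Slow and fast fibers use different genes for each subunit, and the slow troponin C gene is also the one used in heart. Muscles differ in their mix of slow and fast fibers. In bulk tissue, fewer fibers of a type and less RNA per fiber cannot be told apart.

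Between 3329994 and 7164682 reads per column were counted on genes, which was 30.31% to 36.38% of all reads in the tables, while 52.38% to 61.23% were listed as unmapped. All 56953 identifiers are those of mouse genes although the tissue is labelled as rat, and a count therefore also depends on how much of a gene's rat sequence was assigned. Counts were not divided by length, and levels are compared between columns for 1 gene, never between genes. The fast troponin genes together took 2.59% to 4.75% of gene counts, and the muscle label was checked on troponins alone, because no other marker gene could be named. Back ST 2 and back ST 3 stood apart from the rest of their table. Over the 10450 genes, log2 CPM (a gene's count scaled to a common library size) of back ST 2 correlated at 0.937 to 0.943 with the back WT columns and at 0.962 to 0.97 with the leg columns, and back ST 3 correlated at 0.949 to 0.955 with the back WT columns and at 0.947 to 0.963 with the leg columns. Back ST 1 correlated at 0.979 to 0.982 with the back WT columns, about as the back WT columns did with each other (0.98 to 0.982), and at 0.945 to 0.958 with the other two ST columns. Whether the headers of these 3 columns name the right samples could not be checked here, and every value below that uses them is that of the columns as headed. Most comparisons, ranges and ratios that rest on the back ST columns are given with and without back ST 1. Mean levels, shares of genes without overlap, the permutation test and the likeness of patterns are given only with it.

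Promoter sequences of 4 of the 6 genes are in the RefSeq table of the rat (GRCr8). The 250 bases before the annotated start are shown for the slow genes Tnnt1 and Tnni1, whose counts fell in 1 order over the back columns, and for the fast genes Tnni2 and Tnnc2. Capitals mark the E-box CANNTG, the letters bound by myogenic basic helix-loop-helix factors, and TATAAA on either strand.
Tnnt1, GRCr8 chr1:78348785-78349034, plus strand: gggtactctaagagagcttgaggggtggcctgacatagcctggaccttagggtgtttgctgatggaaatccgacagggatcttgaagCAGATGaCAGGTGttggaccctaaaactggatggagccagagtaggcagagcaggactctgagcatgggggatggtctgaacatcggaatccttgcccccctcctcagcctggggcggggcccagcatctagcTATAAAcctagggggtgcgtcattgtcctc
Tnni1, GRCr8 chr13:49781279-49781528, plus strand: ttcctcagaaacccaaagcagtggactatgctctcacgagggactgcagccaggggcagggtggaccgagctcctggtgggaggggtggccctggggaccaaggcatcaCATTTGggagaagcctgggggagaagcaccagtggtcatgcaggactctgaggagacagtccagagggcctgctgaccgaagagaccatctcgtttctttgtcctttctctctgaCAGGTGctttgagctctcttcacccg
Tnni2, GRCr8 chr1:207024240-207024489, plus strand: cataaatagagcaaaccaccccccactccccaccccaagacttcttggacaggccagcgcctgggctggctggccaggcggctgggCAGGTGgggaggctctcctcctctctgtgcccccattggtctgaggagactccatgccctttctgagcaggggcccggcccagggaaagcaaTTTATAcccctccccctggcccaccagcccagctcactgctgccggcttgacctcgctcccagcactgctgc
Tnnc2, GRCr8 chr3:173935340-173935589, minus strand: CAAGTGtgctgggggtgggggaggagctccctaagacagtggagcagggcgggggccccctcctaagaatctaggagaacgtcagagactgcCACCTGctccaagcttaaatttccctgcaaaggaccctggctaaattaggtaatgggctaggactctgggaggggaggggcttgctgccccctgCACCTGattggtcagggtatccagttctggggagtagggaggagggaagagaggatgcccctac
The Tnnt1 window held 2 E-boxes, the Tnni1 window 2, the Tnni2 window 1 and the Tnnc2 window 3. Of all 33469 windows of this length, 65.5% held at least 1. TATAAA stood at -30 to -25 in Tnnt1 and, on the other strand, at -72 to -67 in Tnni2, and 12.9% of all windows held it on either strand. Neither CATTCC on either strand (12.1% of all windows) nor the MEF2 consensus (2.96% of all windows) matched in the 4 windows. Both classes of gene thus carried the E-box letters, which are common in this window, and these matches are a description only. In the same annotation Tnni2 has a gene model that overlaps 5 other genes, among them Ctsd and Syt8, and reads from such genes may be split differently in other counts. Each of the other 5 members overlapped 0 genes.

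The first comparison was leg against back muscle. All 3 slow genes were higher in leg muscle, and 2 of the 3 fast genes, Tnnt3 and Tnni2, were lower. Tnnt1, the slow form of the tropomyosin-binding subunit, measured 0.329, 528 and 190 normalized CPM in back ST 1 to 3 and 117, 5.86 and 3.79 in back WT 1 to 3. In leg muscle it measured 1230, 1290 and 1220 in the ST columns and 1730, 1580 and 1420 in the WT columns. Every leg column was above every back column, and the leg columns lay within 1.42-fold of each other, against a 1610-fold range in back muscle and a 139-fold range there without back ST 1. Mean levels were 1410 ± 208 CPM in leg and 141 ± 205 CPM in back (SD, n = 6 each).

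Tnni1, the slow inhibitory subunit, measured 0.493, 194 and 71.9 CPM in back ST 1 to 3, and 55.1, 13.3 and 4.42 in back WT 1 to 3. Its leg values were 613, 586 and 589 CPM in the ST columns and 851, 662 and 647 in the WT columns. The back columns spanned 393-fold (43.9-fold without back ST 1) and the leg columns 1.45-fold, again with no overlap. Tnnc1, the slow and cardiac calcium-binding subunit, measured 1.48, 268 and 84 CPM in back ST 1 to 3 and 70.1, 7.81 and 3.79 in back WT 1 to 3. In leg it measured 666, 680 and 708 CPM in the ST columns and 956, 846 and 779 in the WT columns. Its back range was 181-fold (70.7-fold without back ST 1) and its leg range 1.43-fold. The 6 back columns fell in 1 order for all 3 slow genes, from ST 2 at the top through ST 3, WT 1, WT 2 and WT 3 to ST 1 at the bottom.

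**Figure D1:**
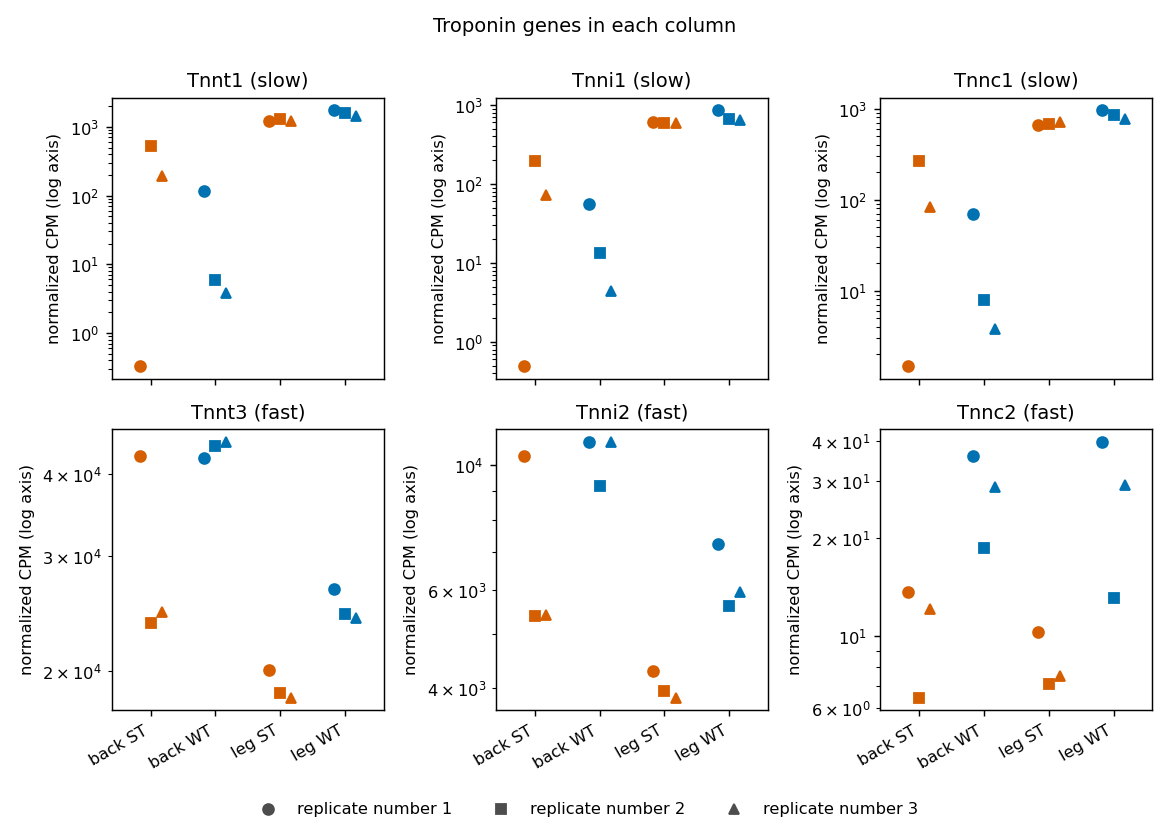
Normalized CPM (log axis) of each troponin gene in every column, by muscle and column code; the marker shape gives the replicate number. The slow genes in the upper row lie close together in leg muscle (Tnnt1 between 1220 and 1730 CPM) and are spread widely in back muscle (0.329 to 528 CPM).

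The lowest values rest on few reads. Back ST 1 had 2 reads of Tnnt1 (95% exact Poisson interval 0.242 to 7.22), 3 of Tnni1 (0.619 to 8.77) and 9 of Tnnc1 (4.12 to 17.1), in the column with the most gene counts. Back ST 2, the column with the fewest, had 1887 reads of Tnnt1 (1800 to 1970). These intervals cover counting error only.

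In the fit over all 12 columns (edgeR's quasi-likelihood test, Benjamini-Hochberg adjustment over the 10450 genes), 22.6% of genes differed between leg and back, 11.7% higher and 10.9% lower in leg. All 3 slow genes were among those higher. The log2 fold change was 3.80 for Tnnt1 (approximate SE 0.86, adjusted p = 0.00509), 3.82 for Tnni1 (SE 0.66, adjusted p = 0.000852) and 3.76 for Tnnc1 (SE 0.71, adjusted p = 0.00156), with a median of 3.80 against -0.003 over all genes tested. Each of the 3 was called in all 12 fits that left out 1 column. The groups did not overlap for any of the 3 slow genes, as for 3.6% of all genes in that direction, while all 3 fast genes overlapped (2.45% of all genes were lower in leg without overlap). The fitted changes compare average levels, to which back ST 2, ST 3 and WT 1 contribute most. Without back ST 2 they were 4.46 for Tnnt1, 4.46 for Tnni1 and 4.48 for Tnnc1, and without back WT 1 they were 5.34, 4.51 and 4.84. Without back ST 1 they were 3.51, 3.52 and 3.47, with 21% of all genes called, 11.2% higher and 9.79% lower. On the mean of log2 CPM the difference was larger, 5.81 for Tnnt1, 5.10 for Tnni1 and 5.14 for Tnnc1. For each, a two-sided exact permutation test of the 6 against 6 columns gave p = 0.00216, the smallest these columns allow, with an adjusted p of 0.0358 over all genes. That test called 8.66% of genes, 4.93% higher and 3.73% lower in leg.

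Tnnt3, the fast tropomyosin-binding subunit, measured 42700, 23700 and 24600 CPM in back ST 1 to 3 and 42400, 44100 and 44800 in the back WT columns. In leg it measured 20100, 18500 and 18200 CPM in the ST columns and 26700, 24400 and 24100 in the WT columns. Back ST 2 and ST 3 thus lay in the range of the leg columns, while back ST 1 lay with back WT. Tnni2, the fast inhibitory subunit, followed the same layout, with 10400, 5380 and 5410 CPM in back ST 1 to 3 and 11000, 9180 and 11000 in back WT 1 to 3. Its leg values were 4290, 3960 and 3850 CPM in the ST columns and 7250, 5620 and 5940 in the WT columns. The log2 change from back to leg was -0.74 for Tnnt3 (SE 0.14, adjusted p = 0.00128) and -0.77 for Tnni2 (SE 0.15, adjusted p = 0.00221), and both genes were called lower in all 12 fits that left out 1 column. The changes without back ST 1 were -0.58 for Tnnt3 and -0.57 for Tnni2. The exact permutation test did not call them, with adjusted p = 0.099 for Tnnt3 and 0.118 for Tnni2.

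Tnnc2, the fast calcium-binding subunit, did not pass the test between muscles, with a log2 change of -0.18 (SE 0.25, adjusted p = 0.654). It had only 23 to 192 reads per column, against at least 15882 for Tnni2, so its values carry more counting error. The lowest count of 23 has an interval of 14.6 to 34.5. Since the identifiers are those of mouse genes, these counts may also hold only part of the gene's rat reads, which was not tested. All Tnnc2 results here are those of the reads that were assigned. Mean levels of Tnnc2 were 19.2 ± 11 CPM in back and 17.8 ± 13.5 CPM in leg (SD, n = 6 each).

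The muscle difference was also fitted within each column code. In the WT columns 13.9% of genes were called, 7.44% higher and 6.43% lower in leg. All 3 slow genes rose from back to leg there, by 5.22 for Tnnt1 (SE 1.3, adjusted p = 0.0152), 4.87 for Tnni1 (SE 0.99, adjusted p = 0.00524) and 4.97 for Tnnc1 (SE 1.07, adjusted p = 0.00712) on the log2 scale. Tnnt3 and Tnni2 fell by 0.81 and 0.73 (adjusted p = 0.0119 and 0.0362). Without back WT 1, the highest of the back WT columns for the slow genes, the changes were 8.29 for Tnnt1, 6.23 for Tnni1 and 7.12 for Tnnc1. Without back WT 2 the call of Tnnt1 was lost (log2 4.68, adjusted p = 0.0672), likewise without back WT 3 (log2 4.70, adjusted p = 0.0617), and that of Tnni2 was kept in 5 of the 12 such fits. An edgeR fit of the WT columns alone called 2164 of 9640 genes. It kept the calls of Tnnt1, Tnni1 and Tnnc1 (adjusted p = 5.23e-05, 6.11e-07 and 5.49e-06). Those of Tnnt3 and Tnni2 were kept too (adjusted p = 1.58e-07 and 6.47e-05). In the ST columns 8.23% of genes were called, 4.65% higher and 3.58% lower in leg, and none of the slow genes passed. Their log2 changes were 2.39 for Tnnt1, 2.78 for Tnni1 and 2.56 for Tnnc1, with adjusted p of 0.222, 0.0667 and 0.113. Tnnt3 and Tnni2 fell by 0.68 and 0.81 in the ST columns (adjusted p = 0.041 and 0.0304). Neither call was kept in a fit of the ST columns alone (adjusted p = 0.235 and 0.158), which called 224 of 9782 genes. Of the 12 fits that left out 1 column, 3 called Tnnt3 and 9 called Tnni2. Both changes were smaller without back ST 1, -0.35 for Tnnt3 (adjusted p = 0.0171) and -0.42 for Tnni2 (adjusted p = 0.0264). Without back ST 1 the slow genes Tnni1 (log2 2.19, adjusted p = 0.0046) and Tnnc1 (log2 1.98, adjusted p = 0.0298) were called higher in leg ST and Tnnt1 was not (log2 1.80, adjusted p = 0.108), where 7.95% of all genes were called, 4.3% higher and 3.65% lower. Without back ST 2, the highest column, the same changes were larger, 4.05 for Tnni1 (adjusted p = 0.00923), 4.01 for Tnnc1 (adjusted p = 0.0144) and 3.70 for Tnnt1 (adjusted p = 0.0655). That fit called 1328 of 10711 genes in this comparison.

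**Figure D2:**
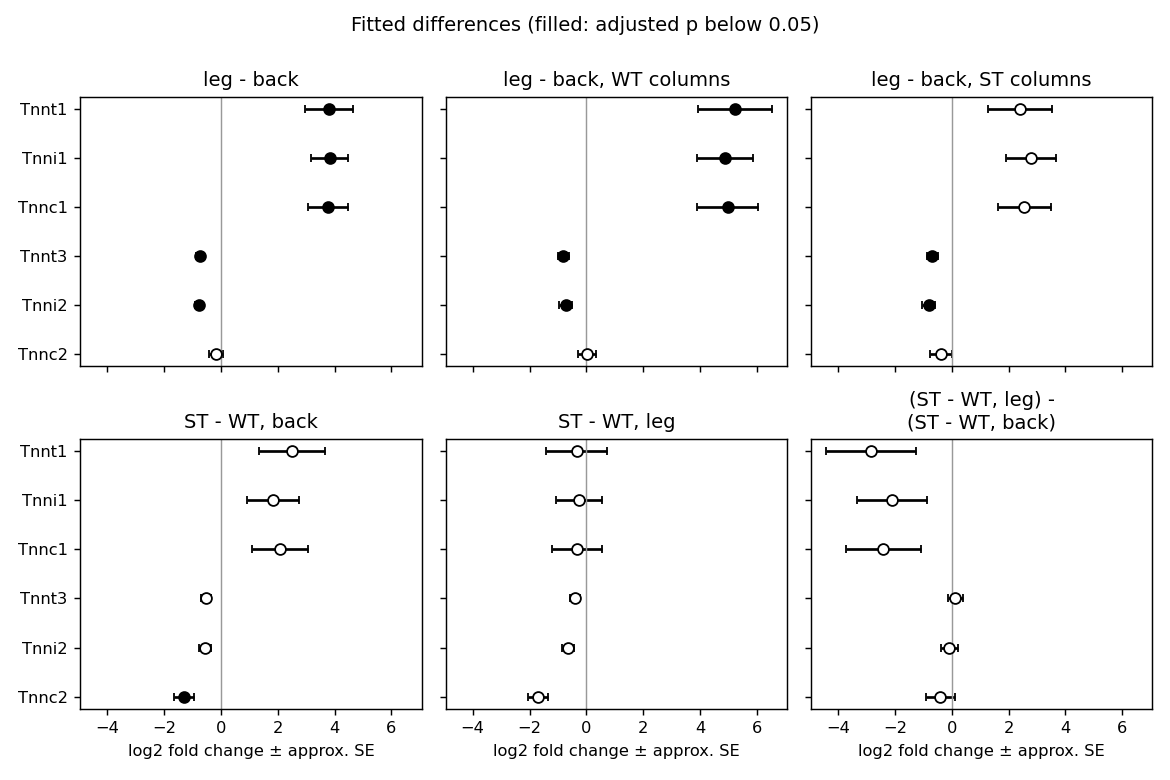
Fitted log2 fold changes of the 6 troponin genes with their approximate SE in each of the 6 comparisons, filled where the adjusted p was below 0.05. Tnnt1, Tnni1 and Tnnc1 lie near 3.80 for leg minus back, while in the ST columns alone they lie between 2.39 and 2.78 and do not pass.

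The spread of the slow genes within back muscle was itself among the widest of all genes. The SD of log2 CPM between the 3 columns of a code, pooled over both codes, was 4.05 for Tnnt1, 3.16 for Tnni1 and 3.04 for Tnnc1, against a median of 0.26 over all genes. Of the 10450 genes, 1 had a higher SD than Tnnt1, 4 than Tnni1 and 5 than Tnnc1. The SDs without back ST 1 were 2.22 for Tnnt1, 1.55 for Tnni1 and 1.86 for Tnnc1 against a median of 0.22, and 2, 5 and 3 genes had a higher one. In leg muscle the same SD was 0.1 for Tnnt1, 0.16 for Tnni1 and 0.11 for Tnnc1, all under the median of 0.2. The fast genes Tnnt3 and Tnni2 had SDs of 0.34 and 0.4 in back, 0.04 and 0.12 there without back ST 1, and 0.08 and 0.15 in leg. Tnnc2 differed from the other 5 in having a high SD in leg muscle too, 0.61, which 336 genes exceeded.

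**Figure D3:**
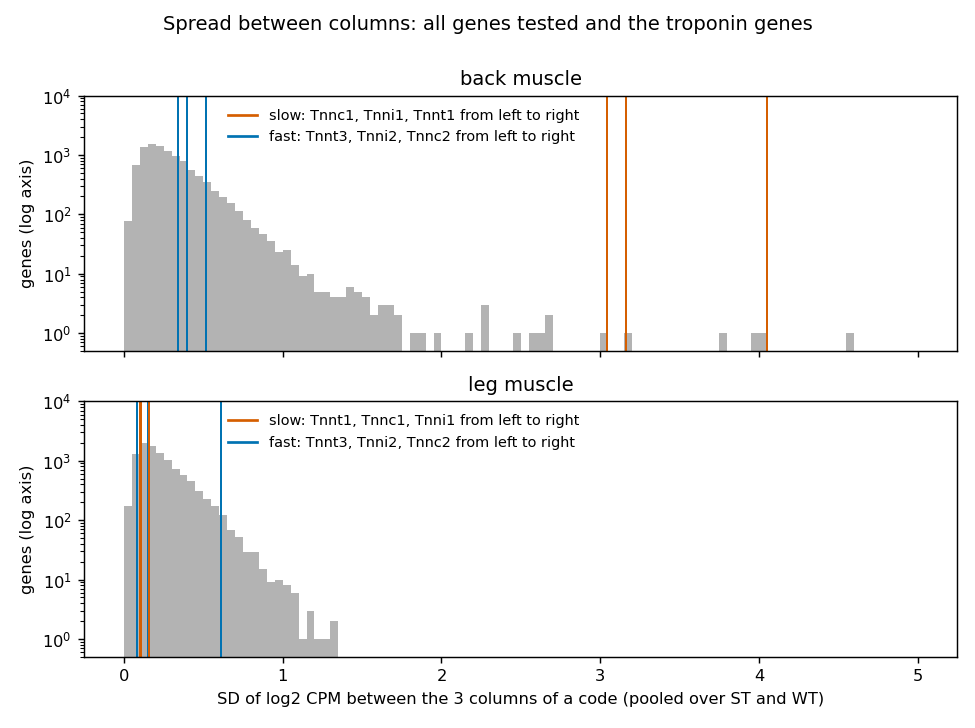
Histogram (log axis) of the SD of log2 CPM between the 3 columns of a code, pooled over ST and WT, for all genes tested in each muscle, with lines at the troponin genes. In back muscle the 3 slow genes lie at 3.04 to 4.05, far to the right of the median of 0.26, and in leg muscle they lie at 0.1 to 0.16.

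The second comparison was ST against WT columns within back muscle. Only Tnnc2 passed the test, and it was lower in the ST columns. It measured 13.6, 6.44 and 12.1 CPM in ST 1 to 3 and 35.8, 18.6 and 28.7 CPM in WT 1 to 3, with no overlap, as for 10.4% of all genes in that direction. Its log2 change was -1.31 (SE 0.35, 2.47-fold lower, adjusted p = 0.0487), while 1.39% of all genes were called lower and 2.39% higher. This call sat at the threshold: it was kept in 3 of the 12 fits that left out 1 column and lost when only the back columns were fitted (adjusted p = 0.127). That back-only fit called 2 of 9466 genes and 0 lower, so the loss there was not particular to Tnnc2. DESeq2, which called 608 of 10450 genes, kept the call with a log2 change of -1.35 (adjusted p = 0.00444).

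The other 5 members did not pass. The slow genes had log2 changes of 2.49 for Tnnt1 (SE 1.17, adjusted p = 0.22), 1.82 for Tnni1 (SE 0.92, adjusted p = 0.256) and 2.08 for Tnnc1 (SE 0.99, adjusted p = 0.224), and their ST and WT columns overlapped, since ST 1 was the lowest and ST 2 the highest of the 6. Tnnt3 and Tnni2 had log2 changes of -0.53 and -0.56 (adjusted p = 0.118 and 0.141). DESeq2 called Tnnt3 here (adjusted p = 0.0395), among the 608 of 10450 genes that it called.

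Without back ST 1 all 6 members passed. The slow genes were then higher in ST, by 3.07 for Tnnt1 (adjusted p = 0.00256), 2.40 for Tnni1 (adjusted p = 0.00104) and 2.66 for Tnnc1 (adjusted p = 0.00229) on the log2 scale. The fast genes were lower, by -0.86 for Tnnt3 (adjusted p = 1.25e-06), -0.95 for Tnni2 (adjusted p = 8.12e-06) and -1.50 for Tnnc2 (adjusted p = 0.00659). Over all genes, the share called rose from 3.78% to 21.7% when this 1 column was left out, with 10.9% higher and 10.8% lower, so the members' calls are part of a change across many genes. Leaving out back ST 2 instead gave 1.16 for Tnnt1, 0.53 for Tnni1 and 0.62 for Tnnc1, and leaving out back WT 1 gave 5.56, 3.18 and 4.23, none of which passed (adjusted p from 0.095 to 0.813). Other measures moved with the split of the back ST columns. Unmapped reads made up 52.38% of back ST 1, 61.02% of ST 2 and 58.83% of ST 3, against 54.58% to 57.69% in back WT. Reads listed as ambiguous made up 7.31% of ST 1, 4.7% of ST 2 and 4.61% of ST 3, against 6.52% to 7.2% in back WT. Their part in the result was not tested.

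In leg muscle all 6 troponin genes were lower in every ST column than in every WT column, but none passed in the fit over all 12 columns. Such a separation in the lower direction was found for 12.7% of all genes, and 12.3% of genes were higher in every ST column. The fit called 0.0766% of genes, 0.0478% higher and 0.0287% lower. The largest difference was that of Tnnc2, which measured 10.3, 7.08 and 7.51 CPM in ST 1 to 3 and 39.6, 13.1 and 29.2 in WT 1 to 3. Its log2 change was -1.71 (SE 0.36, 3.27-fold lower, adjusted p = 0.111), and 3 of the 12 fits that left out 1 column called it. Tnni2 had a log2 change of -0.64 (SE 0.22, adjusted p = 0.212, but 0.0297 with DESeq2) and Tnnt3 one of -0.40 (SE 0.19, adjusted p = 0.349). DESeq2 called 82 of 10450 genes in leg and gave no adjusted p for Tnnc2 there. The slow genes had log2 changes of -0.34 for Tnnt1, -0.27 for Tnni1 and -0.33 for Tnnc1, with adjusted p from 0.907 to 0.923.

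The fit over both muscles gives each gene 1 estimate of spread, and for the slow genes that estimate holds the back columns. When only the 6 leg columns were fitted, 5 of the 6 members were called lower in ST, where 7.08% of all genes were called, 2.8% higher and 4.27% lower. The changes kept their size, with adjusted p = 0.0202 for Tnnt1, 0.0284 for Tnnc1, 0.0058 for Tnnt3, 0.000527 for Tnni2 and 0.00101 for Tnnc2. Tnni1 did not pass (adjusted p = 0.104). Without back ST 1 the fit over the remaining 11 columns called Tnnt3, Tnni2 and Tnnc2 lower in leg ST (adjusted p = 0.006, 0.00126 and 0.00443), where 4.61% of all genes were called, 1.76% higher and 2.85% lower.

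The difference between the muscles' ST minus WT changes was tested directly. It passed for 0 of 10450 genes with edgeR, 1074 of which had an unadjusted p under 0.05, while DESeq2 called 59 genes. For the slow genes it was -2.83 for Tnnt1 (SE 1.58), -2.09 for Tnni1 (SE 1.23) and -2.41 for Tnnc1 (SE 1.32), with adjusted p from 0.57 to 0.606. For the fast genes it lay between -0.40 and 0.13. Without back ST 1 the share called was 6.16%, 2.68% higher and 3.48% lower, and the 3 slow genes passed with -3.41 for Tnnt1, -2.68 for Tnni1 and -2.99 for Tnnc1 (adjusted p = 0.0204, 0.00847 and 0.0156). In that fit Tnnt3 passed too, with 0.46 (adjusted p = 0.0237). Without back ST 2 the slow genes were at -1.51, -0.81 and -0.96, and without back WT 1 at -5.90, -3.46 and -4.56, and in neither fit did they pass.

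Ratios of slow to fast counts within a subunit, taken inside 1 column, do not depend on library size or scaling apart from a pseudocount of 1. Gene length is the same in every column, and assignability was taken to be so but was not tested. The shares of unmapped reads (52.38% to 61.23%) and of ambiguous reads (4.61% to 7.31%) did differ between columns. Differences between columns are read on that assumption, while the size of a ratio cannot be read. The log2 ratio of Tnnt1 to Tnnt3 was -3.96 ± 0.08 in leg and -10.61 ± 4.24 in back (SD, n = 6 each). That of Tnni1 to Tnni2 was -2.94 ± 0.21 in leg and -8.87 ± 3.37 in back. For both subunits every leg column lay above every back column, by a gap of 1.41 for troponin T and 1.59 for troponin I on the log2 scale. The ratio of Tnnc1 to Tnnc2 was 5.72 ± 0.86 in leg and 0.32 ± 3.32 in back, and here back ST 2, at 5.32, overlapped the leg columns. The back means without back ST 1 were -9.45 ± 3.53 for troponin T, -7.85 ± 2.53 for troponin I and 1.00 ± 3.22 for troponin C (SD, n = 5), and leg minus back moved from 6.65 to 5.49, from 5.93 to 4.91 and from 5.40 to 4.72.

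Within leg muscle the ratio for troponin T was -4.03 to -3.85 in the ST columns and -4.08 to -3.95 in the WT columns, and the codes overlapped. The ratio for troponin I was higher in ST, at -2.81 to -2.71 against -3.20 to -3.09, without overlap. The difference between the codes in this ratio was not tested. The ratio for troponin C was 5.99 to 6.54 in ST and 4.58 to 5.99 in WT. Back muscle spanned 10.91 for troponin T, 9.16 for troponin I and 8.39 for troponin C on this scale, and 7.92, 6.39 and 8.14 without back ST 1.

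**Figure D4:**
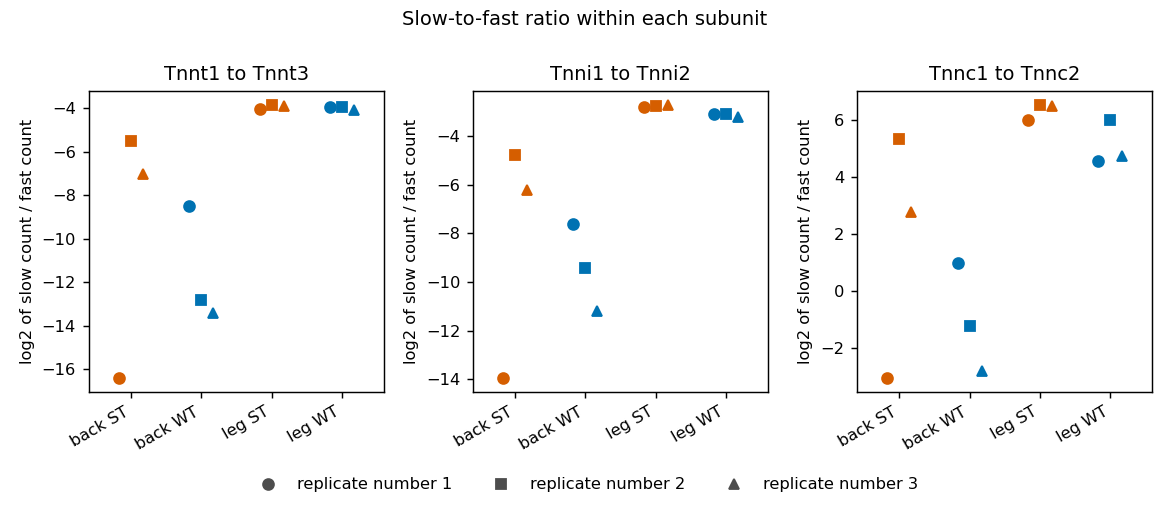
Log2 ratio of the slow to the fast gene's count in each column for the 3 subunits, by muscle and column code, with the marker shape giving the replicate number. Leg columns cluster (-4.08 to -3.85 for Tnnt1 to Tnnt3), and back columns run from -16.4 to -5.49.

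Summed over their 3 genes, the slow troponins took 0.000195% of gene counts in back ST 1, 0.106% in ST 2 and 0.0362% in ST 3. They took 0.021%, 0.00234% and 0.00102% in back WT 1 to 3, and 0.28% to 0.357% in the leg columns. The fast troponins took 4.51% in back ST 1 and 4.63% to 4.75% in back WT, but 3.12% in ST 2 and 3.14% in ST 3, which is inside the leg range of 2.59% to 3.43%. Back WT 1 thus had a slow share between those of back ST 3 and back WT 2 and a fast share like that of the other back WT columns. From back ST 2 through ST 3, WT 1 and WT 2 to WT 3 the slow share fell in value while the fast share rose in value, and only back ST 1, lowest in slow share and below the back WT columns in fast share, stood outside that order.

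**Figure D5:**
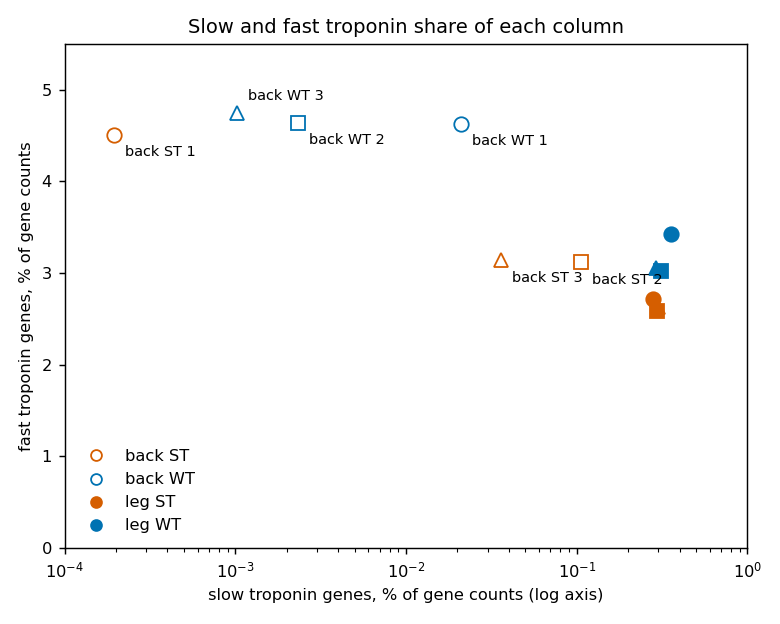
Share of gene counts taken by the 3 slow (log axis) and the 3 fast troponin genes in each of the 12 columns. Leg columns (filled) lie at 0.28% to 0.357% slow, back ST 2 and ST 3 lie nearest to them, and the other back columns have 4.51% to 4.75% fast.

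Likeness of pattern was measured as Pearson's r of log2 CPM over the 12 columns. It is a description with no p, because the columns form the 2 muscles and many genes share that contrast. Among the 10449 other genes, Tnnt1 ranked first for Tnnc1, and Tnnc1 and Tnni1 ranked 3 and 4 for Tnnt1. The non-member genes most like the mean of the slow genes were ENSMUSG00000053093 (r = 0.997, and 0.997 within the 6 back columns) and ENSMUSG00000040752 (r = 0.992, and 0.98 within the back columns). Those most like the mean of the fast genes were ENSMUSG00000018547 (r = 0.976) and ENSMUSG00000017817 (r = 0.968). Tnnt3 and Tnni2 were alike with r = 0.98, Tnni2 ranking 19 for Tnnt3 and Tnnt3 ranking 8 for Tnni2. Tnnc2 was less like the other fast genes, with r = 0.60 to Tnnt3 and 0.71 to Tnni2. Within leg muscle, where the slow genes varied little, Tnnt1 had r = 0.97 to Tnnc1, 0.93 to Tnnt3 and 0.93 to Tnni2, so slow and fast genes varied in the same direction there. These r include the difference between codes, since all 6 genes were lower in every leg ST column than in every leg WT column. Within back muscle the r of Tnnt1 to Tnnt3 was -0.78.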

How the data were processed

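Bulk RNA was purified on columns and read from both fragment ends, per the labels' protocols. The authors deposited raw gene counts, which the series text says came from reads aligned with STAR; the genome build, annotation, strand setting and tool versions were not found in those sources. The submitters' processing notes also name DESeq2. The 4 rows of read classes, which hold 63.62% to 69.69% of all reads, were left out of library sizes and tests. All 12 columns were used, grouped by the muscle in their names.

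Counts were fitted with edgeR 4.0.16 (R 4.3.3): TMM normalization, filterByExpr (minimum count 10), glmQLFit over 4 sets (muscle by column code), Benjamini-Hochberg adjustment over 10450 genes and a threshold of 0.05. Approximate SEs are the log2 fold change divided by the square root of F. Log2 CPM used a prior count of 2, and ratios a pseudocount of 1. The fit was tested on simulated data in which a gene's spread was the same in both muscles. The slow genes here differed in spread between muscles, so that test does not cover them. DESeq2 1.42.0 was an alternative. The labels call the samples biological replicates without naming animals, and columns could be tied to a muscle but not to single samples, so p-values measure the spread between columns. In no pair of columns of a set did counts agree within sampling noise (chi-square per degree of freedom of at least 2.2).

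The genes, lists and tests were chosen with earlier results of these data known. All 6 members are named in each comparison; the genes of likest pattern were named by rank, 2 per class. Mouse identifiers were paired with symbols only for the 6 members, so cardiac troponins, tropomyosins, other thin filament genes and markers of other cell types were not analysed here. Promoters are from RefSeq, GRCr8, and no position in the mouse genome is used.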

Additional observations from a re-analysis of the deposited data

Results flagged for a closer look

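One of 18 sets of 6 values (each gene's log2 CPM and each slow-to-fast ratio, per muscle) held a value far from the others. Tnni1 in leg WT 1 was at 9.73 log2 CPM, the highest of the 6 leg columns, with a gap to the next that took up 0.673 of the whole range, above Dixon's 95% value of 0.625. Chance flags about 1 in 20 such sets. Leg WT 1 was the highest leg column for each of the 6 genes. The wide range of the slow genes in back muscle was not flagged by this rule, since their values are spread along it.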

How the results depend on the processing

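The slow genes were called higher in leg than in back muscle under all 17 alternatives run for each gene (other scaling, test, filter, block, each column left out, and the exact permutation test, which was chosen after seeing the data); Tnnt3 and Tnni2 lost their call in the permutation test. The pairing check gave correlations of -0.1 to 0.05 between ST and WT columns of the same number and of -0.07 to 0.17 between muscles. It thus gave no sign that the numbers pair the columns, but it cannot exclude that columns share animals. With the replicate block, counts of called genes were 442 and 10 for ST minus WT in back and leg, 0 for their difference, and 2392, 1462 and 879 for leg minus back in all, WT and ST columns; among the members it changed the call of Tnnc2 alone, which passed in leg (-1.68, adjusted p = 0.0113), turned Tnnc2 for leg minus back in the WT columns to -0.06, and moved Tnnt1 without a call to 3.64 for ST minus WT in back and to -3.98 for the difference between muscles. DESeq2 called 608, 82 and 59 genes for ST minus WT in back (main 395), in leg (main 8) and their difference (main 0), and gave -0.01 for Tnnc2 between muscles in the WT columns (main 0.02). Without the filter 1173, 503 and 280 genes were called there and 1400 for leg minus back in the ST columns (main 860); in that fit the prior degrees of freedom were infinite (7.36 in the main one), so a gene's own spread had no weight. Fits of 1 muscle called 2 genes in back and 694 in leg. For leg minus back, a fit of the ST columns alone called 224 genes and one of the WT columns alone 2164. The permutation test called 905 (main 2366). Leaving out 1 column gave 30 to 2336 called genes for ST minus WT in back, 2 to 495 in leg, 0 to 662 for their difference, 1858 to 2766 for leg minus back, 697 to 2268 in its WT columns (main 1450) and 303 to 1328 in its ST columns. The direction turned in some of these fits for 3 values that had not passed: the difference between muscles for Tnnt3 (-0.03 to 0.46) and Tnni2 (-0.25 to 0.31), and leg minus back in the WT columns for Tnnc2 (-0.32 to 0.32). The 3 differences in slow-to-fast ratio between leg and back kept their sign under all 13 alternatives run for each. They also moved by less than the SD of the back columns. Leaving out 1 column cannot move a mean by as much as that SD, so this limit was no check of those fits. Precision is limited for Tnnc2 by 23 to 192 reads per column and for the slow genes in back ST 1 by 2 to 9 reads.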
